A study of Mus musculus with 12 samples.

Results

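The genes described here are the regulators of the G1 phase of the cell cycle that the counts table lists under 10 symbols: the D-type cyclins Ccnd1, Ccnd2, and Ccnd3, the kinase Cdk6, the E-type cyclins Ccne1 and Ccne2, and the cyclin-dependent kinase (CDK) inhibitors Cdkn1a, Cdkn1b, Cdkn2c, and Cdkn2d. They were taken by symbol, and all 10 are among the 35303 symbols of the table and among the 17676 that had enough counts to be tested. Their levels were compared across 3 groups of myeloid-derived suppressor cells (MDSCs), immunosuppressive myeloid cells grown here from the bone marrow of female C57BL/6 wild-type mice 6 to 10 weeks old. The marrow cells were cultured with IL-6 and GM-CSF, and CD11b+Gr1+ cells, a mix of polymorphonuclear and monocytic MDSCs, were purified after 3 days. The groups were unmodified MDSCs (MDSC), MDSCs carrying blank PLGA nanoparticles on their surface (MDSC-NP-Blk, also given here as with blank particles), and MDSCs carrying nanoparticles loaded with rapamycin, an inhibitor of the kinase mTOR (CITED). Each group has 4 libraries, numbered as biological replicates. The particles were attached by click chemistry to azido groups on the cells, and whether the unmodified MDSCs also received the azido sugar is not stated. All groups were kept for 24 hours in medium with IL-6 (40 ng/ml) before poly(A) RNA was sequenced. Whether replicates came from separate or pooled mice is not stated, so p-values measure the spread between these cultures only.

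Cells enter the cycle in G1, when mitogens raise the D-type cyclins. These bind CDK4 or CDK6 and phosphorylate the retinoblastoma protein RB, which then releases E2F transcription factors. E2F drives the E-type cyclins, which activate CDK2 and carry the cell into S phase. The INK4 inhibitors p18 (Cdkn2c) and p19 (Cdkn2d) bind CDK4 and CDK6 and block the D-type cyclins, whereas the CIP/KIP inhibitors p21 (Cdkn1a) and p27 (Cdkn1b) bind the cyclin-CDK complexes, above all those with CDK2. In myeloid cells, growth factors such as GM-CSF sustain this machinery, and neutrophil precursors leave the cycle as they mature.

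The libraries held 20604746 to 37855405 counts in genes. A floor of 3 counts is then 7.92e-06 to 1.46e-05% of the total, and this limit speaks to counting error alone. Levels are given as normalized counts, that is, counts divided by the library size and a TMM factor and brought to the scale of the mean library. A difference was tested with edgeR's quasi-likelihood test with Benjamini-Hochberg adjustment over all 17676 genes. A gene is said here to have risen or fallen when its adjusted p was below 0.05, and to be called when its log2 fold change also reached 1 in size. The TMM factors were 1.12 to 1.15 in MDSC and 0.921 to 0.947 in the other libraries. Scaling by library size alone moved the median gene with a mean normalized count above 50 to a log2 fold change of -0.26 in both comparisons with MDSC, whereas it was at 0.016 and 0.002 with TMM, and all changes below are relative to the TMM scaling. Library numbers serve as labels here, and the main test did not pair libraries by them. A tissue label names the CNS, and of 5 CNS markers Gfap, Snap25, and Rbfox3 had 0 counts in every library, whereas Mbp was at 1763 to 2237 normalized counts and Tmem119 at 1211 to 2150 over the libraries. The 7 MDSC markers summed to between 600113 and 875845, most of it S100a8 and S100a9. Against MDSC, the 7 rose in MDSC-NP-Blk, and 4 rose and 1 fell in CITED. Csf3r rose by 1.34 in MDSC-NP-Blk and by 1.54 in CITED on the log2 scale, whereas Ly6c2 rose in MDSC-NP-Blk (0.39) and fell in CITED (-0.35).

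The D-type cyclin Ccnd1 fell 8.91-fold with blank particles and 7.05-fold in CITED, and the inhibitor Cdkn1a rose in both, 2.07-fold in CITED and 1.81-fold in MDSC-NP-Blk. The E-type cyclin Ccne2 fell 2.01-fold with blank particles and 4.92-fold in CITED. Cdkn2c was lower in CITED than in either other group. In CITED against MDSC, 3 of the 10 genes rose and 6 fell, where 22.2% of all genes tested rose and 22.2% fell. With library size alone, 1 of the 10 rose and 8 fell, and over all genes 2192 rose and 6323 fell. With TMM, 1 of the 10 was called higher and 2 were called lower, against 3.28% and 6.70% of all genes. In MDSC-NP-Blk against MDSC, 4 rose and 5 fell (19.9% and 18.6% of all genes), and 2 were called, both lower (2.86% of all genes were called lower and 1.88% higher). Here library size alone gave 3 higher and 6 lower, with 1662 and 6107 over all genes. In CITED against MDSC-NP-Blk, 1 rose and 6 fell (10.5% and 11.4% of all genes), and 1 was called, lower (2.00% of all genes, with 0.651% called higher). The median log2 fold change of the 10 genes was -0.40, -0.22, and -0.24 in the 3 comparisons, against -0.052, -0.027, and 0 over all genes. The libraries of the groups did not overlap for 9 genes in CITED against MDSC (42.5% of all genes), 8 in MDSC-NP-Blk against MDSC (35.6%), and 5 in CITED against MDSC-NP-Blk (21.2%). The first pair of comparisons shares the MDSC libraries and the latter pair the MDSC-NP-Blk libraries. In these bulk samples, fewer cells of a type and less RNA per cell cannot be told apart.

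**Figure D1:**
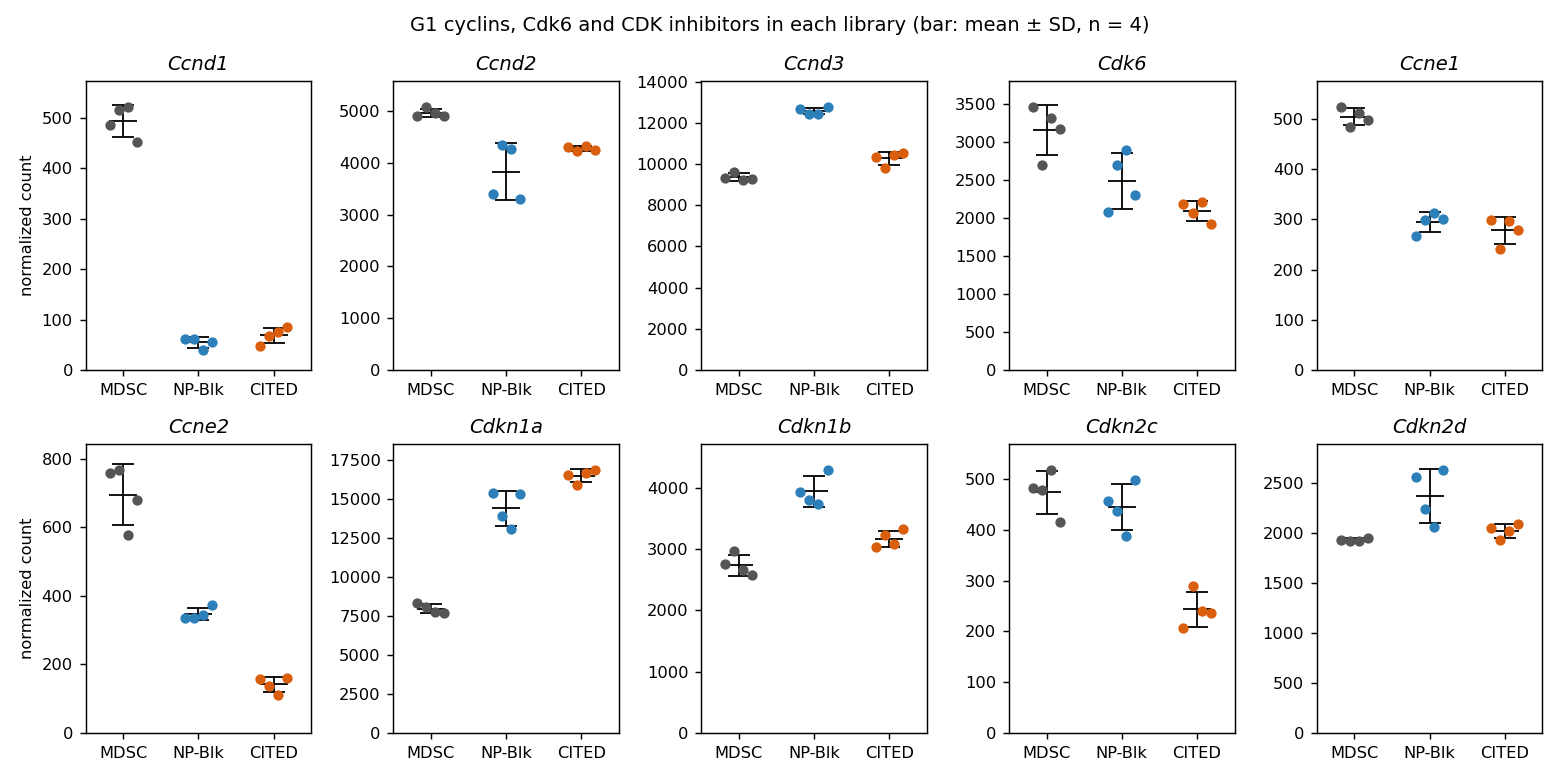
Normalized counts (y axis, linear from 0) of the 10 genes in each of the 4 libraries of MDSC, MDSC-NP-Blk (NP-Blk on the axis), and CITED, with points for libraries and bars for the mean ± SD. Ccnd1 is at 452.7 to 520.9 in MDSC and below 100 in every particle library, Ccne2 steps down over the groups, and Cdkn1a is higher in every library with particles than in any MDSC library.

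Of the D-type cyclins, Ccnd1, at chr7:144483668-144493662 (GRCm39, minus strand), changed by the largest factor among the 10 genes. It was at 486.3, 516.3, 520.9, and 452.7 normalized counts in the 4 MDSC libraries, at 61.06, 62.59, 40.55, and 55.99 in MDSC-NP-Blk, and at 48.78, 68.30, 75.29, and 84.91 in CITED. Every MDSC library was above every library with particles, and the ranges of the particle groups overlapped. It fell by 3.16 on the log2 scale in MDSC-NP-Blk (SE 0.148, adjusted p = 2.76e-18) and by 2.82 in CITED (SE 0.145, adjusted p = 8.62e-18). The particle groups did not differ past the threshold (log2 fold change 0.34, 95% interval 0 to 0.67, adjusted p = 0.174). This gene had 39 to 91 raw counts in those 8 libraries, and leaving out CITED 1, its lowest CITED library, gave 0.47 (adjusted p = 4.62e-02). LTO1, a neighboring gene, lies on the opposite strand and covers 48.4% of the exonic bases of Ccnd1, and whether the counting used strand is not given in the sources used here. LTO1 was at 219.6 to 263.6 normalized counts in MDSC, 247.6 to 346.2 with blank particles, and 312.2 to 383.0 in CITED, and it rose in CITED (0.56, adjusted p = 7.62e-05).

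Ccnd2 and Ccnd3 moved much less. Ccnd3, which carried most of the D-type cyclin counts, was at 9203 to 9636 in MDSC, 12437 to 12750 with blank particles, and 9787 to 10542 in CITED. It rose in MDSC-NP-Blk by 0.42 on the log2 scale (SE 0.0437, adjusted p = 6.26e-10), and in CITED it was lower than in MDSC-NP-Blk (-0.29, adjusted p = 3.06e-06). Against MDSC, Ccnd3 in CITED rose by 0.13 (adjusted p = 1.18e-02), and this turned to -0.14 with library size alone and was at 0.01 (adjusted p = 0.901) with the transcript length trend, described with Cdk6, removed. Ccnd2 was at 4893 to 5065 in MDSC and 4216 to 4320 in CITED. In MDSC-NP-Blk, libraries 1 and 4 were at 3404 and 3290, and libraries 2 and 3 at 4335 and 4257, the latter pair inside or just above the range of CITED. It fell in MDSC-NP-Blk (-0.37, adjusted p = 1.03e-05) and in CITED (-0.21, adjusted p = 5.78e-03). In CITED against MDSC-NP-Blk it was at 0.16 (adjusted p = 7.39e-02), with overlapping ranges.

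Cdk6, the kinase partner of the D-type cyclins, showed the same split among the MDSC-NP-Blk libraries, with 2077 and 2311 in libraries 1 and 4 and 2703 and 2893 in libraries 2 and 3. It was at 2700 to 3461 in MDSC and 1925 to 2220 in CITED. It fell in CITED against MDSC (-0.59, SE 0.0782, adjusted p = 6.77e-08) and in MDSC-NP-Blk (-0.34, adjusted p = 4.95e-04), and the ranges of MDSC and MDSC-NP-Blk overlapped. In CITED against MDSC-NP-Blk it fell by 0.25 (adjusted p = 1.66e-02), with overlapping ranges, and the adjusted p was above 0.05 without MDSC-NP-Blk 2 (-0.21), without MDSC-NP-Blk 3 (-0.18), without CITED 4 (-0.21), or with the transcript length trend described next removed (-0.13, adjusted p = 9.48e-02). The transcripts of Ccnd2 and Cdk6 are the longest of the 10, at 6330 and 11657 bases. Over 10542 genes, the Spearman correlation of a gene's relative level in a library with its transcript length was 0.22 to 0.35 in MDSC and -0.34 to -0.19 in CITED. In MDSC-NP-Blk it was -0.42 and -0.24 in libraries 1 and 4 and -0.047 and 0.092 in libraries 2 and 3. With that trend removed, Cdk6 was at -0.15 in CITED and -0.02 in MDSC-NP-Blk, and Ccnd2 at 0.03 in CITED.

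The E-type cyclins, which bind CDK2 at the entry into S phase, both fell. Ccne2, at chr4:11190303-11204947 (GRCm39, plus strand), was at 757.7, 766.9, 576.9, and 679.6 in MDSC, at 335.9, 334.9, 344.1, and 372.1 with blank particles, and at 157.6, 136.6, 110.7, and 160.2 in CITED. The 3 groups did not overlap. Against MDSC, its log2 fold change was -1.01 in MDSC-NP-Blk (SE 0.103, adjusted p = 5.84e-10) and -2.30 in CITED (SE 0.114, adjusted p = 3.08e-18), and CITED was lower than MDSC-NP-Blk by 2.45-fold (adjusted p = 1.07e-10). The call in MDSC-NP-Blk lies at the threshold of 1, and it was lost without MDSC 1, MDSC 2, MDSC-NP-Blk 1, or MDSC-NP-Blk 2, with a log2 fold change of -1.08 to -0.96 over the fits that left out 1 library. Ccne1 was at 483.1 to 522.4 in MDSC, 265.9 to 311.9 with blank particles, and 240.3 to 298.9 in CITED. It fell in MDSC-NP-Blk (-0.77, adjusted p = 2.41e-08) and in CITED (-0.85, adjusted p = 2.31e-09). Between the particle groups its ranges overlapped, and the difference was -0.08 (95% interval -0.27 to 0.11, adjusted p = 0.637). Ints8, on the opposite strand, covers 15.2% of the exonic bases of Ccne2 and was at 569.5 to 665.1 in MDSC, 441.4 to 550.5 with blank particles, and 445.2 to 533.7 in CITED.

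Of the CIP/KIP inhibitors, Cdkn1a, which encodes p21, a target of p53, rose most. It was at 8301, 8089, 7739, and 7692 in MDSC, at 15360, 13912, 13049, and 15316 with blank particles, and at 16505, 15908, 16667, and 16856 in CITED. The 3 groups did not overlap, and the step between the particle groups was the smaller one. It rose 2.07-fold in CITED (log2 fold change 1.05, SE 0.0503, adjusted p = 1.26e-18) and 1.81-fold in MDSC-NP-Blk (0.86, SE 0.0502, adjusted p = 8.22e-16). CITED was above MDSC-NP-Blk by 0.19 (SE 0.0497, adjusted p = 3.44e-03). The call in CITED was lost with library size alone (0.78) and with the length trend removed (0.91). The gene lies at chr17:29309936-29319701 (GRCm39, plus strand). Cdkn1b, which encodes p27, was at 2570 to 2969 in MDSC, 3740 to 4291 with blank particles, and 3029 to 3325 in CITED. It rose in MDSC-NP-Blk (0.52, adjusted p = 1.47e-09), and it was lower in CITED than in MDSC-NP-Blk (-0.32, adjusted p = 4.43e-05). In CITED against MDSC it rose by 0.21 (adjusted p = 2.25e-03), whereas with library size alone this turned to -0.06.

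The INK4 inhibitors moved apart. Cdkn2c, which encodes p18, was at 482.4, 479.3, 518.1, and 415.6 in MDSC, at 458.0, 436.7, 388.8, and 498.1 with blank particles, and at 206.4, 290.3, 240.3, and 236.4 in CITED. The CITED libraries were below all the others, and the ranges of MDSC and MDSC-NP-Blk overlapped. It fell in CITED against MDSC (-0.96, SE 0.106, adjusted p = 1.75e-09) and against MDSC-NP-Blk (-0.87, SE 0.107, adjusted p = 8.24e-08), and in MDSC-NP-Blk against MDSC it was at -0.09 (95% interval -0.29 to 0.11, adjusted p = 0.506), whereas with library size alone it fell there (-0.35, adjusted p = 4.56e-03). Without MDSC 4 (-1.02) or without CITED 2 (-1.06) its fall in CITED against MDSC also reached the size of a call. Cdkn2d, which encodes p19, was at 1922 to 1951 in MDSC, 2064 to 2630 with blank particles, and 1925 to 2094 in CITED. It rose in MDSC-NP-Blk (0.29, adjusted p = 2.55e-04), where library size alone gave 0.03 (adjusted p = 0.734) and removal of the length trend 0.13, neither past the test. It was lower in CITED than in MDSC-NP-Blk (-0.23, adjusted p = 7.40e-03), with overlapping ranges and an adjusted p of 5.74e-02 without MDSC-NP-Blk 4. In CITED against MDSC it was at 0.07 (95% interval -0.06 to 0.19, adjusted p = 0.423).

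**Figure D2:**
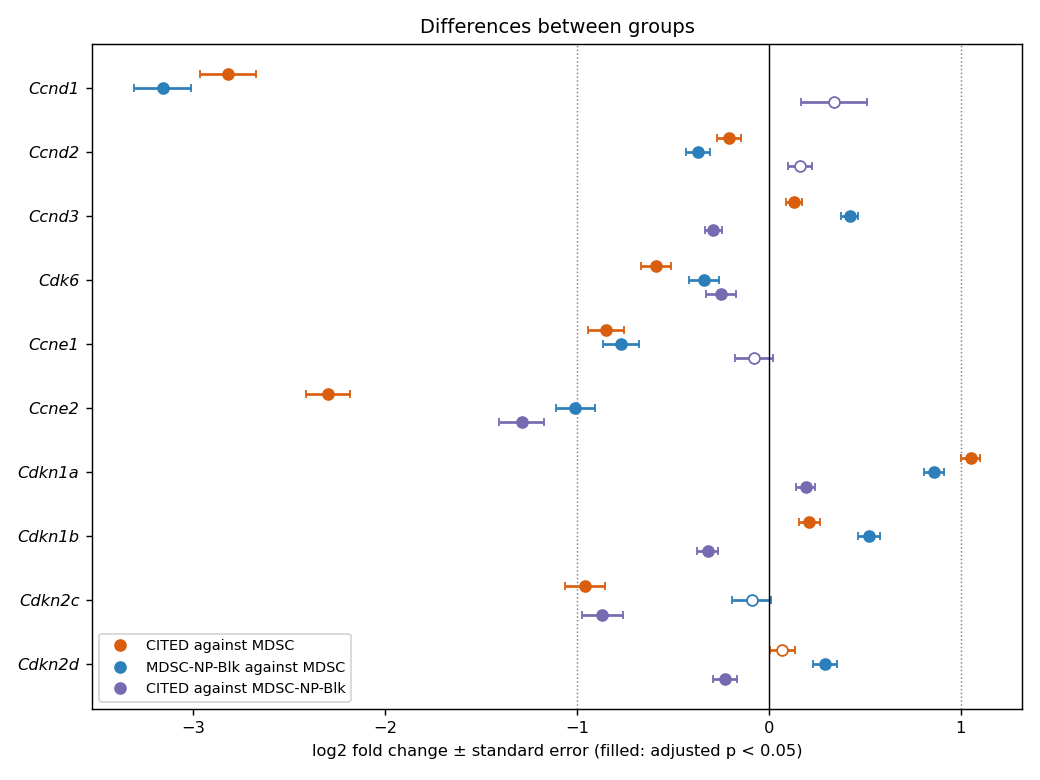
Log2 fold change (x axis) of the 10 genes (y axis) in the 3 comparisons, with the standard error as a bar, filled points for an adjusted p below 0.05, and dotted lines at a log2 fold change of 1 in either direction. Ccnd1 and Ccne2 lie past the left line in CITED against MDSC, and Cdkn1a lies past the right one.

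Ratios within a library do not depend on the scaling between libraries, but they do carry the length trend of each library. Per kilobase of transcript, Ccnd3 was 83.2 to 83.8% of the summed D-type cyclin level in MDSC, 89.8 to 92.2% with blank particles, and 87.6 to 88.3% in CITED. Ccnd1 was 2.17 to 2.5% of it in MDSC, 0.156 to 0.240% with blank particles, and 0.221 to 0.378% in CITED, and Ccnd2 was 14 to 14.3%, 7.59 to 9.98%, and 11.3 to 12%. With that trend removed, Ccnd2 and Ccnd3 were at 0.03 and 0.01 on the log2 scale in CITED against MDSC, which leaves next to no difference between them, and at -0.21 and 0.31 in MDSC-NP-Blk. The summed level of the D-type cyclins was 5550 ± 106 normalized counts per kilobase in MDSC, 6850 ± 14.8 with blank particles, and 5780 ± 172 in CITED (SD, n = 4). Ccne1 was 61.2 to 69.0% of the E-type cyclin level in MDSC, 66.5 to 69.4% with blank particles, and 81.4 to 87.0% in CITED. The summed E-type level was 376 ± 16.8 in MDSC, 208 ± 11.1 with blank particles, and 161 ± 13.7 in CITED (SD, n = 4), and the groups did not overlap. Among the inhibitors, Cdkn1a held 66.6 to 68.0% in MDSC, 73.8 to 74.9% with blank particles, and 80.1 to 80.7% in CITED, Cdkn2d 19.6 to 21.0%, 14.6 to 15.7%, and 12 to 12.4%, and Cdkn2c 2.58 to 3.18%, 1.59 to 1.71%, and 0.719 to 1.04%. Per kilobase, Cdkn1a exceeded Cdkn1b 6.45- to 7.14-fold in MDSC, 8.26- to 9.25-fold with blank particles, and 11.7- to 12.9-fold in CITED.

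**Figure D3:**
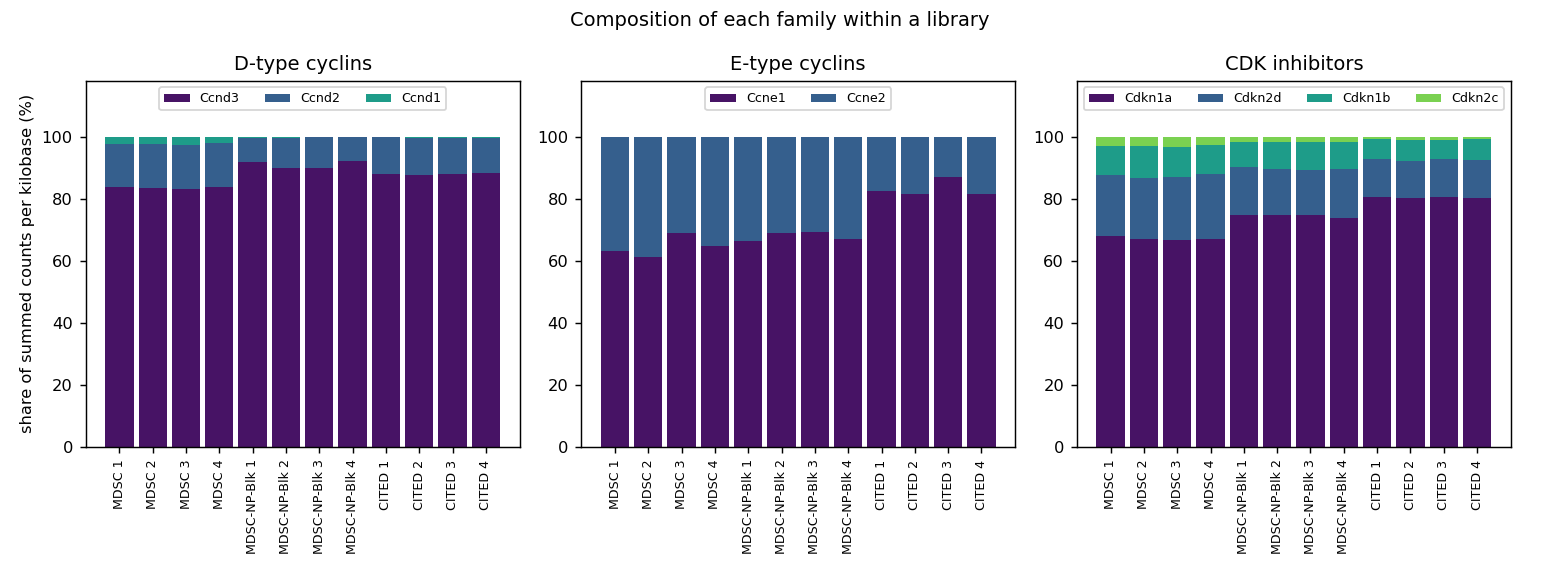
Share of the summed counts per kilobase (y axis, percent) that each gene holds within the D-type cyclins, the E-type cyclins, and the CDK inhibitors, with 1 bar per library. Ccnd3 fills most of the D-type bar in all 12 libraries, and the Cdkn1a share steps up from at most 68.0% in MDSC to at least 80.1% in CITED.

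By level per kilobase, Ccnd3 led in MDSC (4640 ± 92.7, SD, n = 4), followed by Cdkn1a (4140 ± 151), and the libraries did not overlap. In MDSC-NP-Blk and CITED the order was reversed, with Cdkn1a at 7490 ± 587 and 8570 ± 213 and Ccnd3 at 6230 ± 79.1 and 5090 ± 166. Below them in MDSC came Cdkn2d, Ccnd2, Cdkn1b, Cdk6, Ccne1, Cdkn2c, Ccne2, and Ccnd1, where the libraries of Cdk6 and Ccne1 and those of Ccne2 and Ccnd1 overlapped. In MDSC-NP-Blk, Cdkn1b (866 ± 54.3) stood above Ccnd2 (604 ± 87.0), the libraries of Cdk6 overlapped those of Cdkn2c, and these overlapped those of Ccne1. Cdkn1b and Ccnd2 overlapped in CITED, as did Ccne2 (27.1 ± 4.41) and Ccnd1 (18.3 ± 4.03). Ccnd1 was the lowest of the 10 in every group.

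Many factors that control these genes, E2F among them, bind just before the start of transcription. In GRCm39, the 250 bases before the start of the canonical transcript of 9 of the genes, all but Ccnd1, were searched on both strands for the letters of an E2F site (TTTCCCGC, TTTGGCGC, TTTCGCGC, or TTTGCCGC), which 2.28% of 21757 such windows of protein-coding genes hold, and of a GC box (GGGCGG), which 36.3% hold. E2F letters were found for Ccnd3, starting 226 bases before the start, and for Cdkn2d, 134 bases before it, and for none of the other 7. GC boxes were found for Ccnd3, Ccne1, Cdkn1a, Cdkn1b, Cdkn2c, and Cdkn2d. AP-1 letters (TGANTCA, in 6.18% of windows) and CRE letters (TGACGTCA, in 1.70%) were in none of the 9 windows. CCAAT (36.5%) was found for Ccnd3, Cdkn1b, and Cdkn2d, and the CHR letters TTTGAA (15.6%) for Ccnd2 and Cdkn2d. A match is a description of letters, not a site. Only these exact letters in these 250 bases were searched, so the lack of a match does not mean that a site is absent. Shown are the windows of Cdkn1a, which rose most, and of Cdkn2d, which holds E2F letters and was not called, with E2F letters and GC boxes in capitals. They lie at chr17:29312488-29312737 (plus strand), inside the annotated span of Cdkn1a between its outer end and the canonical start, and at chr9:21202728-21202977 (minus strand), upstream of the whole of Cdkn2d. In Cdkn2d the E2F letters run into 2 overlapping GC boxes.
Cdkn1a: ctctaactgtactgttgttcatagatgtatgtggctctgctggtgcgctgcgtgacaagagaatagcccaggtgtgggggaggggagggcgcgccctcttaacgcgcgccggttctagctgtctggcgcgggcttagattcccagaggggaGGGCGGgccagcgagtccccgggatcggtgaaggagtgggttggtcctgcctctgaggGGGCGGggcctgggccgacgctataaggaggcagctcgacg
Cdkn2d: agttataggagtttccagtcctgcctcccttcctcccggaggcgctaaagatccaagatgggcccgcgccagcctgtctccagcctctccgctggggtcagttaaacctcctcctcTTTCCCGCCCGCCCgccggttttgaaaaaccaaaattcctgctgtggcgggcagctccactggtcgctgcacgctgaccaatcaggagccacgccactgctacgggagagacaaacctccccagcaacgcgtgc
The window of Cdkn1a overlaps annotated exons of the opposite-strand transcript Dino, and that of Cdkn2d holds 111 exonic bases of the opposite-strand noncoding gene Gm69763. Of the windows not shown, that of Cdkn2c is wholly exonic and that of Ccne2 mostly exonic in other transcripts of the same gene.

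Outside the 10 genes, the kinases and inhibitors of the same step were mixed. Cdk2, the partner of the E-type cyclins, fell in CITED (-0.80, adjusted p = 1.65e-12) and in MDSC-NP-Blk (-0.45, adjusted p = 5.52e-07). Cdk4, the other partner of the D-type cyclins, was at 0.08 (adjusted p = 0.239) and 0.06 (adjusted p = 0.413). Cdkn2b, which encodes the INK4 inhibitor p15, was at 35.13 to 51.77 normalized counts in MDSC, 92.53 to 148.8 with blank particles, and 189.1 to 227.6 in CITED. It rose in CITED by 2.22 (adjusted p = 1.24e-12) and in MDSC-NP-Blk by 1.48 (adjusted p = 3.23e-08), and CITED was above MDSC-NP-Blk by 0.74 (adjusted p = 8.27e-04). Cdkn1c and Cdkn2a had at most 12 and 11 counts in any library, and no direction is given for them.

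Of 13 genes of the RB and E2F families, 9 fell and 1 rose in CITED against MDSC, with a median log2 fold change of -0.62, and 8 fell in MDSC-NP-Blk, with the other 5 not past the test. The repressor genes E2f7 and E2f8 were called lower in both, at -2.24 and -2.28 in CITED and -1.14 and -1.25 in MDSC-NP-Blk. E2f8 was at 1640 to 1742 normalized counts in MDSC, 569.2 to 821.4 with blank particles, and 274.4 to 424.1 in CITED. Rbl1, which encodes the RB relative p107, fell by 1.44 in CITED and by 0.98 in MDSC-NP-Blk. With library size alone, 13 of the 13 fell in MDSC-NP-Blk.

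Among 12 CDK activators and genes of the SCF ubiquitin ligase, which degrades cyclin E and p27, 4 rose and 5 fell in CITED, and 2 rose and 4 fell in MDSC-NP-Blk. Cdc25a, the phosphatase that activates CDK2, fell by 1.76 in CITED and by 0.81 in MDSC-NP-Blk. Skp2, the SCF subunit that recognizes p27, fell by 1.79 and 1.13, and its cofactor Cks1b fell by 1.1 in CITED and was at -0.15 in MDSC-NP-Blk (adjusted p = 0.163). Fbxo31, which targets cyclin D1 for degradation, rose by 0.99 in MDSC-NP-Blk and by 0.67 in CITED.

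Of 10 cyclins and kinases of S, G2, and M phase, 9 fell in each of the 3 comparisons, with medians of -1.61, -0.61, and -1. Ccna2, the cyclin that follows cyclin E, was at 3254 to 3477 normalized counts in MDSC, 1887 to 2224 with blank particles, and 986.1 to 1078 in CITED, and Ccnb1 and Plk1 were also called lower in CITED. The 9 were called lower in CITED, and in MDSC-NP-Blk each fell by less than the size of a call. Of 12 transcriptional and other cyclins, 4 rose and 2 fell in CITED, and 4 rose and 5 fell in MDSC-NP-Blk. Ccni rose by 1.1 in MDSC-NP-Blk and by 0.66 in CITED, and Ccng2, a target of FOXO factors, rose only in MDSC-NP-Blk of the particle groups (0.49, against -0.05 with adjusted p = 0.420 in CITED), with CITED below MDSC-NP-Blk (-0.54, adjusted p = 1.95e-10).

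Of 16 p53 targets, the genes that share a known regulator with Cdkn1a, 12 rose in CITED, with the other 4 not past the test. In MDSC-NP-Blk 10 rose and 1 fell, with the other 5 not past the test. The medians were 0.38 in CITED and 0.25 in MDSC-NP-Blk. Over all genes, 22.2% rose in CITED and 19.9% in MDSC-NP-Blk. Library size alone put the median gene with a mean normalized count above 50 at -0.26 in both, so these medians depend on the scaling. Ccng1 rose in CITED (0.36, adjusted p = 2.67e-07) and was at 0.10 in MDSC-NP-Blk (adjusted p = 0.113). Mdm2 likewise rose in CITED (0.29, adjusted p = 2.29e-05) and was at 0.04 in MDSC-NP-Blk (adjusted p = 0.598). Zmat3 was the gene that fell in MDSC-NP-Blk (-0.24, adjusted p = 2.57e-02), and it was at 0.14 in CITED (adjusted p = 0.196). Gadd45a rose by 1.49 and 1.43 and Btg2 by 1.45 and 1.35 in CITED and MDSC-NP-Blk, whereas Bax, the pro-apoptotic gene, rose by 1.07 and 0.45 and differed between the particle groups by 0.62 (adjusted p = 1.67e-09). In CITED against MDSC-NP-Blk, 8 of the 16 rose (10.5% of all genes). Of 12 FOXO factors and targets, which include regulators of the p27 gene, 5 rose and 4 fell in CITED and 9 rose and 2 fell in MDSC-NP-Blk. Klf2 was called higher in both, at 1.42 in CITED and 1.24 in MDSC-NP-Blk. Sesn3 was called lower in CITED (-1.73) and fell in MDSC-NP-Blk (-0.84, adjusted p = 7.44e-04). Txnip rose by 0.75 in CITED and by 1.03 in MDSC-NP-Blk, and Pik3ip1 fell by 0.51 in CITED and rose by 0.68 in MDSC-NP-Blk.

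Of 16 genes of mitogen signaling that feed the D-type cyclins, 10 rose and 4 fell in CITED, and 12 rose and 3 fell in MDSC-NP-Blk, with medians of 0.38 in both. Csf2rb, the common receptor chain for GM-CSF, was at 40670 to 42130 normalized counts in MDSC, 56023 to 63674 with blank particles, and 78730 to 87336 in CITED. Csf1r, the receptor for the growth factor M-CSF, rose by 1.00 and 0.90, and the AP-1 gene Junb rose by 1.87 and 1.60 in CITED and MDSC-NP-Blk. Ets1, a transcription factor, fell by 1.06 in CITED and by 0.16 in MDSC-NP-Blk. The medians of 0.38 depend on the scaling, as those of the p53 targets do. Of all genes, 22.2% rose and 22.2% fell in CITED against MDSC, and 19.9% rose and 18.6% fell in MDSC-NP-Blk against MDSC. These lists were chosen with earlier results known, and their counts are not independent evidence of a direction.

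**Figure D4:**
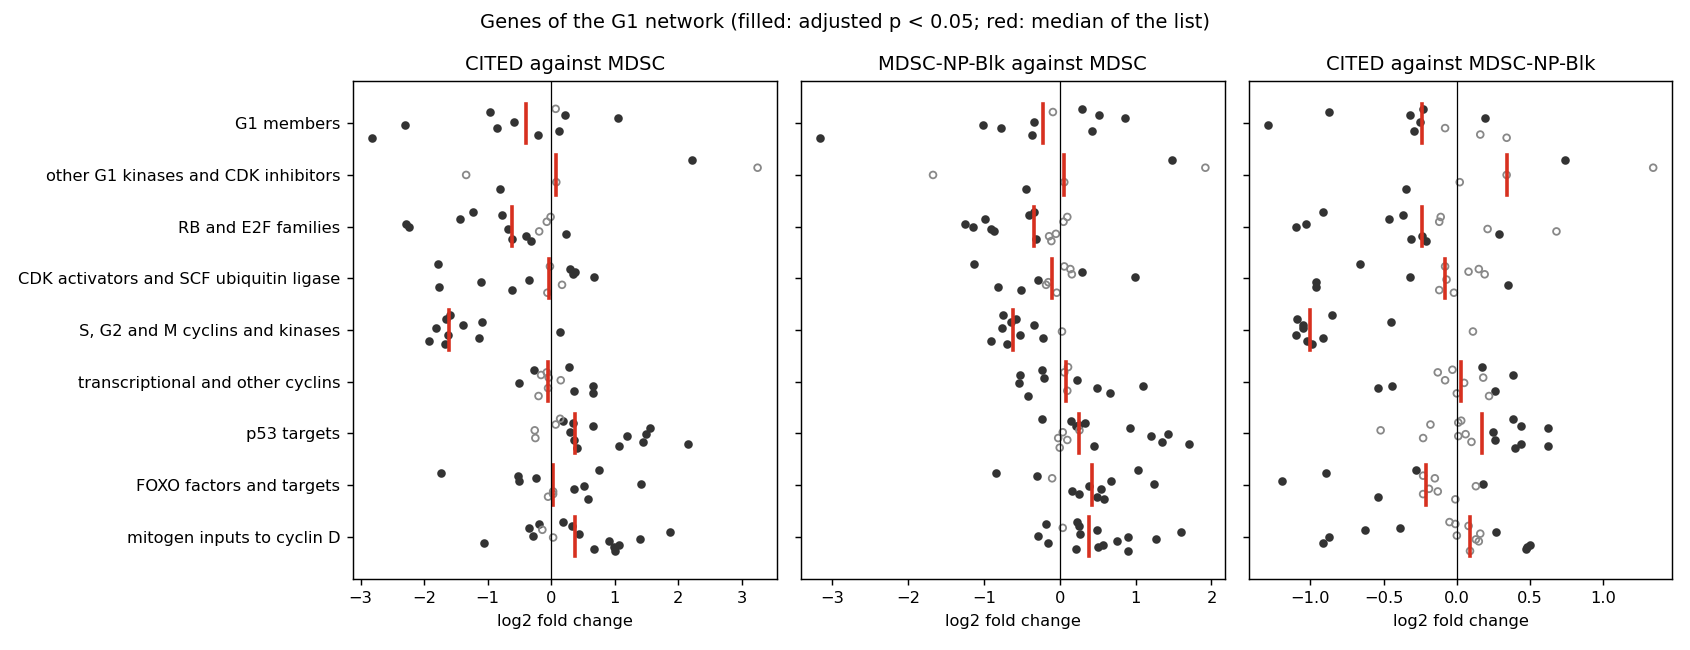
Log2 fold change (x axis) of each gene in the 10 G1 genes and in 8 lists of the wider network (y axis) in the 3 comparisons, with filled points for an adjusted p below 0.05 and a red line for the median of the list. The genes of S, G2, and M phase lie furthest to the left in CITED against MDSC, with a median of -1.61, and open points far from 0 among the other kinases and inhibitors are Cdkn1c and Cdkn2a, which had at most 12 counts.

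The genes whose levels over the 12 libraries were most like a member's, among 10545 candidates and by the root mean square difference of centered log2 levels, were for Ccne2 the ribonucleotide reductase gene Rrm2 (0.160) and Prss57 (0.190). For Cdkn2c they were the mitotic genes Cks2 (0.129) and Birc5 (0.131), and for Ccne1, Nup85 (0.0895) and Dnm1l (0.0897). Cdkn1a was closest to H2-K1 (0.0443) and Gnl1 (0.0494), Cdkn1b to Mxi1 (0.0638) and Runx3 (0.0673), and Cdkn2d to the glycolytic genes Eno1 (0.0366) and Pfkl (0.0439). Ccnd3 was closest to Padi4 (0.0363) and Anxa6 (0.0458), Ccnd2 to Larp1 (0.0607) and Dnajc11 (0.0654), and Cdk6 to Usp9x (0.0551) and Ankrd27 (0.0682). Ccnd1 was furthest from its nearest genes, Scd1 at 0.512 and Igf2bp2 at 0.520. This distance grows with the size of a change and with counting error, and Ccnd1 had 39 to 91 raw counts in the libraries with particles. Against MDSC, Scd1 was at -2.99 in CITED and -2.61 in MDSC-NP-Blk, and Igf2bp2 at -2.02 and -2.32.

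Markers of several other cell types moved with the groups, whereas no T cell, erythroid, or stromal marker was past the test in any comparison. The part of any cell type in these results was not tested. The 5 macrophage markers summed to 7346 to 7889 normalized counts in MDSC, 4213 to 5612 with blank particles, and 4914 to 5127 in CITED, and 4 of them fell in each comparison with MDSC, C1qa from 513.0 to 592.5 in MDSC to 28.95 to 43.78 in CITED. The 4 progenitor markers summed to 27811 to 30988, 10853 to 13678, and 3552 to 4045, of which Mpo was 25138 to 28121, 7519 to 10013, and 1188 to 1351. Mpo was the only one that fell in CITED against MDSC. Kit and Gata2 rose in MDSC-NP-Blk against MDSC (0.49 and 0.24), and both fell in CITED against MDSC-NP-Blk (-0.63 and -0.38). The 4 B cell markers summed to 135.0 to 198.4, 97.73 to 123.1, and 36.27 to 46.50, and the 4 T cell markers to at most 63.28 in any library. The 4 mast cell or basophil markers summed to 3813 to 4161 in MDSC, 4093 to 4753 with blank particles, and 2519 to 2695 in CITED, and the 4 fell in CITED against each of the other groups (Mcpt8 by 0.63 and Ms4a2 by 1.14 against MDSC). The 4 dendritic cell markers, with Itgax as nearly all of the sum, summed to 10666 to 11607, 7236 to 7631, and 9031 to 10095, with Itgax at a log2 fold change of -0.60 in MDSC-NP-Blk against MDSC (adjusted p = 1.56e-12). The 3 megakaryocyte markers summed to 3580 to 4148, 5582 to 5847, and 5267 to 5791, and the 3 rose in MDSC-NP-Blk against MDSC. In CITED against MDSC, Pf4 rose (0.87), whereas Itga2b fell (-0.21, adjusted p = 1.75e-02) and Gp9 was at 0.12 (adjusted p = 0.749). The 4 erythroid markers summed to at most 83.96 in any library, and the 4 stromal markers to at most 137.6.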

How the data were processed

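RNA from 12 libraries was measured and grouped by library title, with 4 libraries in each of the 3 groups. The authors quantified poly(A) RNA-seq reads with Salmon, with version 1.4.0 named in the submitters' processing notes, and deposited whole-number counts per gene symbol, neither normalized nor filtered. The GENCODE release and the use of strand are not given in the sources used here, so reads from overlapping genes on opposite strands cannot be told apart. The 1 entry with an empty symbol, which held 0 counts, was left out. The 10 genes and the gene lists were chosen with earlier results of these data known.

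The 17676 symbols with at least 2 counts in all were tested with edgeR 4.0.16 in R 4.3.3 (TMM factors, glmQLFit and glmQLFTest, robust estimation off, group as the only term, all 12 libraries in the fit), with Benjamini-Hochberg adjustment over all of them. Standard errors were taken as the size of the log2 fold change over the root of its F statistic. Genes named outside the 10 were drawn from the 3 with the lowest p in each comparison of each list, and from lists of 5 or fewer. Not all of these genes are named. For each member, the 2 most similar genes with a mean normalized count above 50 are given. Mdm2 and Zmat3 were named as p53 targets that did not rise in MDSC-NP-Blk. LTO1, Ints8, Dino, and Gm69763 were named for their overlap with members or with the windows before them. Transcript lengths, gene overlaps, and the bases before a start came from GENCODE release M39 on GRCm39. The window before Ccnd1 is not reported here. The length trend was a loess curve (span 0.5) per library.

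The main test did not pair libraries by replicate number. Correlations of same-numbered libraries ran from -0.056 to 0.14, and values this low cannot exclude a pairing. No libraries had identical values. The 20 alternatives were DESeq2 1.42.0, other scalings and filters, the 8 libraries of a comparison, a replicate block, the length trend, and 12 fits without 1 library. The fits were also tested on simulated data. Figures were drawn with Python 3.11.15 and matplotlib 3.10.9.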

Additional observations from a re-analysis of the deposited data

How the results depend on the processing

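Of 600 values for the log2 fold changes of the 10 genes in 3 comparisons under 20 alternatives, 580 kept their direction and their side of the threshold of 0.05, 9 lost it, 6 gained it, and 5 changed direction. In CITED against MDSC the changes of direction were Ccnd3 at -0.14, Cdkn1b at -0.06, and Cdkn2d at -0.21 with library size alone, and Ccnd2 at 0.03 and Cdkn2d at -0.11 with the transcript length trend removed, and the cause was not tested. The number of genes called in MDSC-NP-Blk against MDSC, 2 as reported, was 1 with the replicate block, 1 with the length trend removed, and 1 to 2 over the fits without 1 library. In each case Ccne2 was the gene lost. The replicate block changed no other number of called genes, but brought Ccnd2 in CITED against MDSC-NP-Blk past the test (0.17, adjusted p = 9.37e-03). Removal of the length trend did the same (0.24, adjusted p = 6.10e-04), as did leaving out MDSC-NP-Blk 2 (0.23, adjusted p = 8.49e-03) or MDSC-NP-Blk 3 (0.21, adjusted p = 8.50e-03). A library correlated best with its own number in 7 of 24 tests. Library size alone gave 4 called in CITED against MDSC, all lower, and 3 in MDSC-NP-Blk against MDSC. Over all 17676 genes, this scaling gave 272 called higher and 1891 lower in CITED, and 146 and 1060 in MDSC-NP-Blk. With TMM these were 580 and 1185 in CITED, and 333 and 505 in MDSC-NP-Blk. Over the alternatives Ccnd1 stayed between -3.09 and -2.69 in CITED against MDSC, and Ccne2 between -2.57 and -2.12. The low counts of Ccnd1 in the particle groups limit the comparison between them, and those of Cdkn1c and Cdkn2a allow none.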
